A study of Arabidopsis thaliana with 12 samples.

Results

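Transcript signals of 5 nuclear genes of the photosynthetic light reactions were compared between Arabidopsis thaliana plants in red light and in white light. PSBW (AT2G30570) and PSBY (AT1G67740) encode small photosystem II proteins, PSAN (AT5G64040) a subunit of photosystem I, LHCB1.5 (AT2G34420) a light-harvesting antenna protein, and AT1G22700, known as PYG7, a factor of photosystem I assembly. The genes were found as array features that the platform annotation lists with exactly 1 gene, which gave 5 features of 3439 in all, 1 for each gene. The annotation carries LHCB1.5 under the symbol LHB1B2, and none of the 5 genes also appears on a feature listed with several genes. Wild-type plants of the Landsberg ecotype spent 48 hours in red light at 200 µE, or 48 hours in white light at 20 µE, and each light was represented by 6 single-channel arrays. Age, organ, growth before treatment and the number of plants were not given in the labels. Light colour and light level differed together between the groups, so their parts in any difference cannot be told apart.

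Photosystem II uses light to take electrons from water, and photosystem I uses light to pass electrons on to ferredoxin, so the photosystems work in series in the thylakoid membrane of the chloroplast. Most antenna proteins of the LHCB1 type belong to the major light-harvesting complex, which feeds excitation energy mainly to photosystem II and can also serve photosystem I. Core subunits that bind the pigments are encoded in the plastid, while the small subunits and antenna proteins studied here are encoded in the nucleus and imported. Plants are known to adjust the amounts of the photosystems and the antenna to the colour and level of light.

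Arrays 1 and 2, 3 and 4, and 5 and 6 of each light were near-duplicates, correlating in rank at 0.91 to 0.989, whereas arrays of different pairs within a light correlated at 0.641 to 0.821. Each such pair was averaged and counted as 1 sample, so n = 3 per light, and p-values measure the spread between these samples, which may be technical. The deposited intensities are linear values in arbitrary units from 0 to 100, and array medians ran from 0.233 to 0.471. The brightest feature stood at 100 on 7 arrays, which were red arrays 1 to 4 and 6 and white arrays 5 and 6. It stood at 96.5 on red array 5 and at 74.1 to 87.5 on white arrays 1 to 4. Whether a ceiling or the scaling of the arrays lies behind this is not known. The lowest medians in red light, 0.233 and 0.237, were those of red arrays 5 and 6, while red arrays 1 to 4 had 0.417 to 0.471. Values are therefore given as deposited and after quantile normalization, which gives features of the same rank the same value on every array. All 5 genes lay above 0 on all 12 arrays. No organ was named to check, and the 7 root genes and 5 senescence genes listed as markers of other tissue had no feature with 1 gene. Signal in a whole-plant or organ extract cannot tell fewer cells of a type from less RNA per cell.

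PSBW encodes a small membrane-spanning subunit of the photosystem II reaction centre. Its deposited intensity was 32.8, 33.2, 75.6, 78.5, 77.9 and 66.1 on red arrays 1 to 6, against 9.11, 8.13, 14.2, 13, 18 and 19.5 on white arrays 1 to 6. Every red array lay above every white array, as for 9.6% of all features, and red arrays 1 and 2 were the lowest of their light. After normalization PSBW averaged 52.2 ± 22.5 in red light and 16.1 ± 2.29 in white light (mean ± SD, n = 3 each). The log2 difference, red minus white, was 1.58 ± 0.41 (SE), with a 95% interval of 0.51 to 2.66 before any adjustment. Log2 values are of the normalized intensity plus a pseudocount of 0.054. The 3 same-numbered pairs differed by 0.73, 1.92 and 2.11, so the smallest difference came from arrays 1 and 2. PSBW had the same normalized value, 69.5, on red arrays 3, 4 and 5, because it was the third brightest feature on each of them.

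PSBY encodes a precursor that is processed into a pair of small thylakoid membrane proteins associated with photosystem II. Its deposited intensity was 1.83, 1.74, 3.1, 2.77, 3.35 and 3.51 on red arrays 1 to 6, against 0.576, 0.532, 1.52, 1.12, 1.41 and 1.77 on white arrays 1 to 6. The lights overlapped only narrowly on this scale, as red array 2 lay just below white array 6. All 3 red pair means lay above all 3 white pair means, as for 14.1% of all features on the deposited scale. Arrays 1 and 2 were the lowest of both lights, as they were for PSBW on the deposited scale. After normalization the arrays of the lights also overlapped. PSBY then averaged 2.31 ± 0.605 in red light and 1.36 ± 0.332 in white light (mean ± SD, n = 3 each). Its log2 difference was 0.74 ± 0.28 (SE), with a 95% interval of 0.0017 to 1.48 and pair differences of 0.75, 0.85 and 0.62. These pair differences were closer to each other than those of any of the other 4 genes.

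PSAN encodes a small subunit on the lumenal side of photosystem I. Its deposited intensity was 2.28, 2.42, 2.29, 2.41, 2.65 and 2.79 on red arrays 1 to 6, against 2.33, 2.66, 1.87, 1.88, 4.72 and 3.86 on white arrays 1 to 6. Red arrays stayed within a narrow range, and the white arrays spread to both sides of it. After normalization all 6 red arrays (1.85 to 2.36) lay below all 6 white arrays (2.37 to 4.91), so the separation of the lights depended on the scaling. The normalized mean was 2.11 ± 0.195 in red light and 3.59 ± 1.16 in white light (mean ± SD, n = 3 each). The log2 difference was -0.70 ± 0.27 (SE), with a 95% interval of -1.41 to 0.016 and pair differences of -1.03, -0.13 and -0.94. On the deposited scale the difference was -0.13, and there pair 2 had the opposite sign, with a log2 ratio of red over white of 0.33.

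LHCB1.5 encodes a chlorophyll a/b-binding protein of the major antenna complex. Its deposited intensity was 4.99, 6.86, 6.36, 6.87, 14.6 and 15.1 on red arrays 1 to 6, against 2.61, 2.76, 14.7, 13.8, 33.3 and 33.2 on white arrays 1 to 6. White arrays 1 and 2 were the lowest of all 12 and white arrays 5 and 6 the highest, so the red values lay inside the white range. After normalization LHCB1.5 averaged 7.76 ± 2.49 in red light and 15.8 ± 9.41 in white light (mean ± SD, n = 3 each). The log2 difference was -0.80 ± 0.68 (SE), with a 95% interval of -2.58 to 0.99. Pair 1 differed by 0.23, and pairs 2 and 3 by -1.60 and -1.03. Without white arrays 1 and 2 the difference was -1.49, without white arrays 3 and 4 it was -0.47, and without white arrays 5 and 6 it was -0.44. LHCB1 genes are close paralogs, so transcripts of more than AT2G34420 may have contributed to this signal, which was not tested.

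PYG7 encodes a thylakoid protein required for photosystem I to accumulate. It came to attention in earlier work on these arrays because its lights differed, so its values are a description and carry no test here. Its deposited intensity was 2.32, 0.865, 1.89, 1.79, 0.744 and 0.631 on red arrays 1 to 6, against 0.351, 0.222, 0.154, 0.141, 0.0819 and 0.151 on white arrays 1 to 6. Every red array lay above every white array, a property for which it was noticed and which 9.6% of all features share. The near-duplicate red arrays 1 and 2 differed by 1.53 on the normalized log2 scale, the widest gap between near-duplicates for any of the 5 genes. PYG7 averaged 1.24 ± 0.475 in red light and 0.233 ± 0.158 in white light after normalization (mean ± SD, n = 3 each). The log2 difference was 2.19, with pair differences of 1.58, 3.04 and 1.95, and it was 1.65 with the pseudocount multiplied by 4, since the white values lie near the pseudocount. PYG7 and PSAN, both photosystem I genes, thus had differences of opposite sign in all 3 pairs after normalization.

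**Figure D1:**
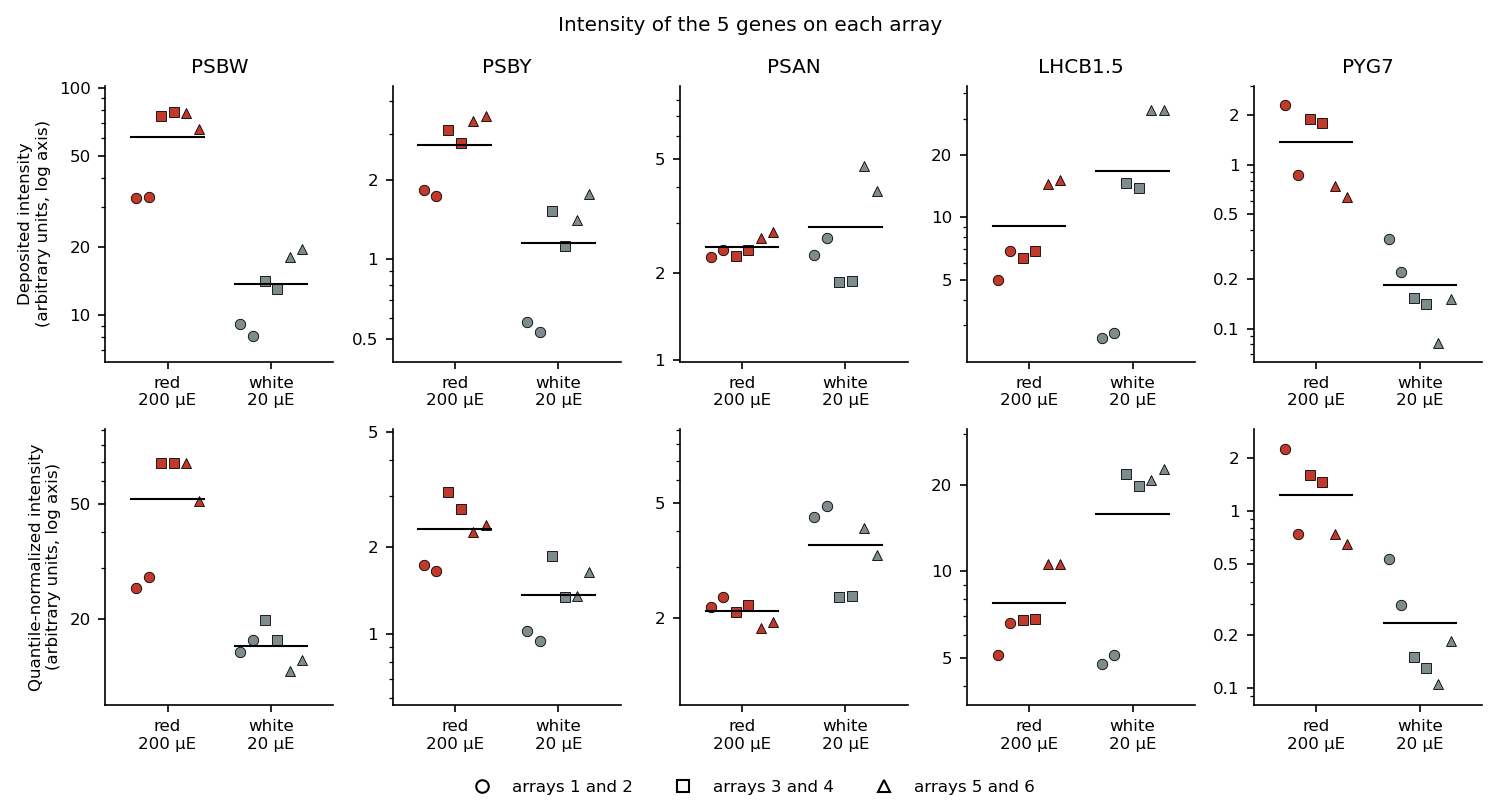
Intensity of each gene on each array, as deposited (top row) and after quantile normalization (bottom row), on log axes in arbitrary units, with red light left of white light. Symbols mark arrays 1 and 2, 3 and 4, and 5 and 6, and bars are the means of the 3 pair means. The arrays of PSBW and PYG7 are separated on both scales, those of PSAN only after normalization, and those of PSBY and LHCB1.5 on neither.

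None of the 4 genes other than PYG7 passed an adjusted p of 0.05 in the limma fit of pair means over all 3438 rows, in which 0.116% of rows passed. Adjusted p values were 0.216 for PSBW, 0.361 for PSBY, 0.372 for PSAN and 0.709 for LHCB1.5. The genes were chosen with earlier results of these data known, which these p values do not take into account. Before adjustment PSBW and PSBY lay below 0.05 in that fit, as did 13.8% of all rows. The difference of PSBW held rank 117 from the highest of 3438 and that of PSBY rank 513, while those of LHCB1.5 and PSAN held ranks 475 and 583 from the lowest. The median log2 difference of the 5 genes was 0.74, with 3 above and 2 below 0. Over all rows the median was -0.01, and 1506 lay above and 1932 below 0. The median of the 5 includes PYG7, which was noticed for its difference, so it is not read against that of all rows. Of the other 4, PSBW (1.58) and PSBY (0.74) lay above 0, and PSAN (-0.70) and LHCB1.5 (-0.80) below. After normalization the 3 pair means of the lights did not overlap for PSBW and PSBY, with red higher, as for 8.41% of all rows. They did not overlap for PSAN with white higher, as for 9.08% of all rows. The 6 arrays of the lights separated for PSBW, as for 4.71% of rows with red higher, and for PSAN, as for 5.06% with white higher. With the near-duplicates entered as a random block, PSBW had an adjusted p of 0.0418 in limma, in a fit that called 3.05% of rows. That fit used the 12 arrays instead of pair means, and p values of such fits are too small. With same-numbered pairs as a replicate block, 0% of rows passed, and PSBY had the lowest adjusted p of the 4 in limma, 0.157.

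**Figure D2:**
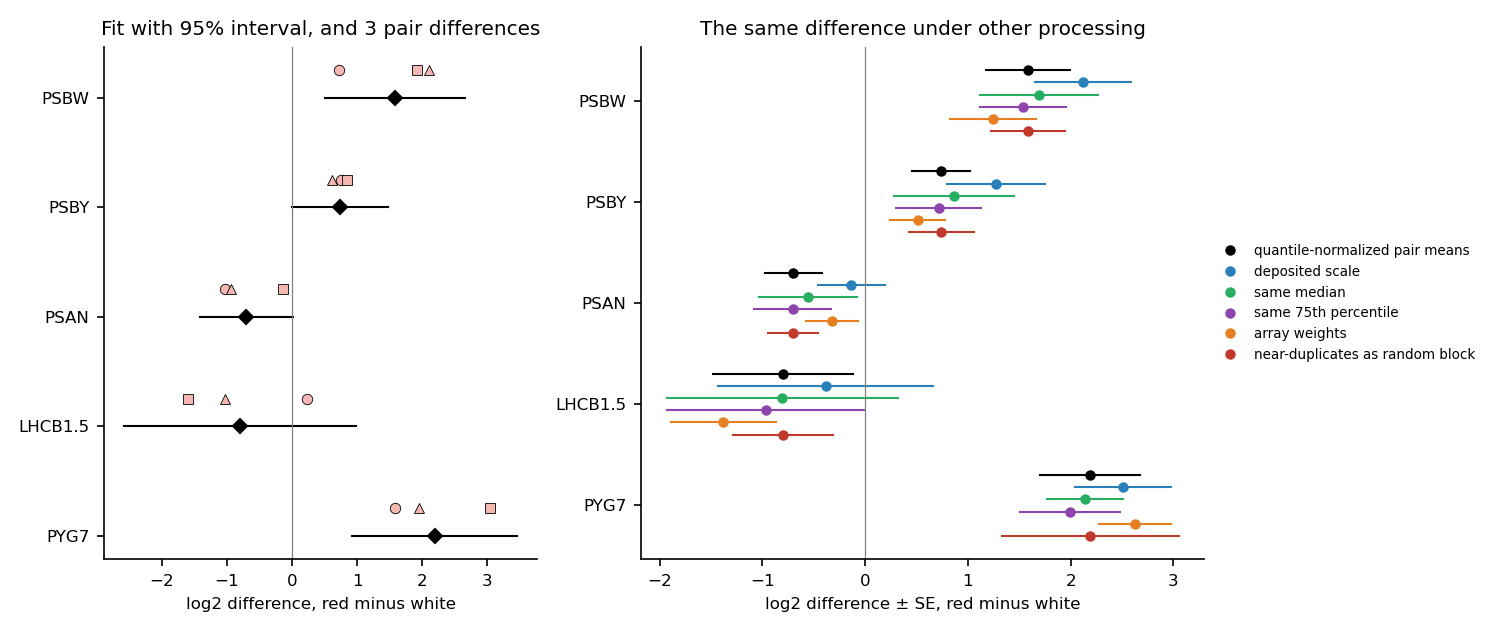
Log2 difference, red minus white, of each gene. Left, the fitted value (diamond) with its 95% interval and the differences of pairs 1 (circle), 2 (square) and 3 (triangle). Right, the fitted value ± SE under 6 ways of processing, where PSAN lies between -0.71 and -0.13 and PSBW has its highest value, 2.12, on the deposited scale.

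The direction of each fitted difference was the same under the 4 scalings tried. Without normalization the median of all rows was 0.20 higher in red light. Relative to that shift, the differences on the deposited scale were 1.92 for PSBW, 1.08 for PSBY, -0.33 for PSAN, -0.58 for LHCB1.5 and 2.31 for PYG7. With arrays scaled to the same 75th percentile the median of all rows was -0.11. Relative to it the differences were 1.65 for PSBW, 0.83 for PSBY, -0.60 for PSAN, -0.85 for LHCB1.5 and 2.11 for PYG7.

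Ratios between genes on the same array do not depend on any constant by which that array was multiplied, although quantile normalization alters them, and they ask whether the genes differed unequally between the lights. Each probe binds with its own efficiency, so only the difference of a ratio between lights is read, not its size. The ratio of PSBW to PSAN was 14.4, 13.7, 33, 32.6, 29.4 and 23.7 on red arrays 1 to 6, against 3.92, 3.06, 7.59, 6.93, 3.81 and 5.07 on white arrays 1 to 6. The lowest red ratio lay well above the highest white ratio, and the ratio was 4.79 times higher in red light by the means of log values. The log2 difference was 2.02, 2.18 and 2.59 in pairs 1, 2 and 3. It was 2.01 to 2.62 when 1 pair was left out.

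The ratio of PSBW to LHCB1.5 was 4.37 to 11.9 on red arrays and 0.54 to 3.49 on white arrays, without overlap. White arrays 1 and 2, where LHCB1.5 was lowest, came nearest to the red arrays, and the log2 difference was 0.81 in pair 1, against 3.61 and 3.10 in pairs 2 and 3. The ratio of PSBY to PSAN was 0.72 to 1.35 on red arrays and 0.2 to 0.815 on white arrays. These overlapped at white array 3, and the pair means did not overlap, with a log2 difference of 1.46. The ratio of PSBY to LHCB1.5 was 0.23 to 0.488 on red arrays and 0.0424 to 0.221 on white arrays, a log2 difference of 1.70 without overlap, although the arrays overlapped after quantile normalization.

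Within photosystem II the ratio of PSBW to PSBY was 17.9 to 28.3 on red arrays and 9.32 to 15.8 on white arrays, without overlap on the deposited scale. Its log2 difference of 0.80, with 0.25, 1.34 and 0.82 in pairs 1, 2 and 3, was smaller than the 2.26 of PSBW to PSAN. After quantile normalization the difference was 0.82, the lights overlapped in arrays and in pair means, and pair 1 had -0.06. The ratio of PSAN to LHCB1.5 was 0.182 to 0.456 on red arrays and 0.116 to 0.963 on white arrays. The red values lay inside the white range, and the log2 difference of 0.25 was -0.22 without white arrays 3 and 4 and -0.23 without white arrays 5 and 6. Pairs 1, 2 and 3 of this ratio differed by -1.21, 1.44 and 0.51. The photosystem I subunit and the antenna gene thus kept no common ratio across the samples of white light.

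Of the 6 ratios among the genes other than PYG7, 4 separated all red from all white arrays and 5 separated the pair means on the deposited scale, against 2 and 4 after quantile normalization. Among ratios, on the deposited scale, of any 2 of the 2556 features above 0 on all arrays, 11.2% separated the arrays and 19.1% the pair means. The 6 ratios share their genes and are not independent of each other. An exact two-sided permutation test over 3 against 3 pair means gave p = 0.1 for each of the 5, the smallest value this design allows, and an adjusted value of 0.167 over the 10 ratios computed, or 0.12 over the 6 without PYG7. For PSAN to LHCB1.5 the exact permutation p was 0.8. This test cannot reach 0.05 with 3 against 3. Neither its p values nor the shares above allow for the choice of the genes with earlier results known.

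Ratios to PYG7 are given as a description. PSAN to PYG7 was 0.979 to 4.42 on red arrays and 6.62 to 57.6 on white arrays, without overlap. Of ratios of any 2 features above 0 on all arrays, 11.2% separated the arrays. PYG7 was noticed for its own separation, so that of this ratio carries no further weight. The ratio of PSBW to PYG7 overlapped, with 14.1 to 105 on red and 25.9 to 220 on white arrays. Its log2 difference was -0.75, and this was 0.21 with the pseudocount multiplied by 4.

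**Figure D3:**
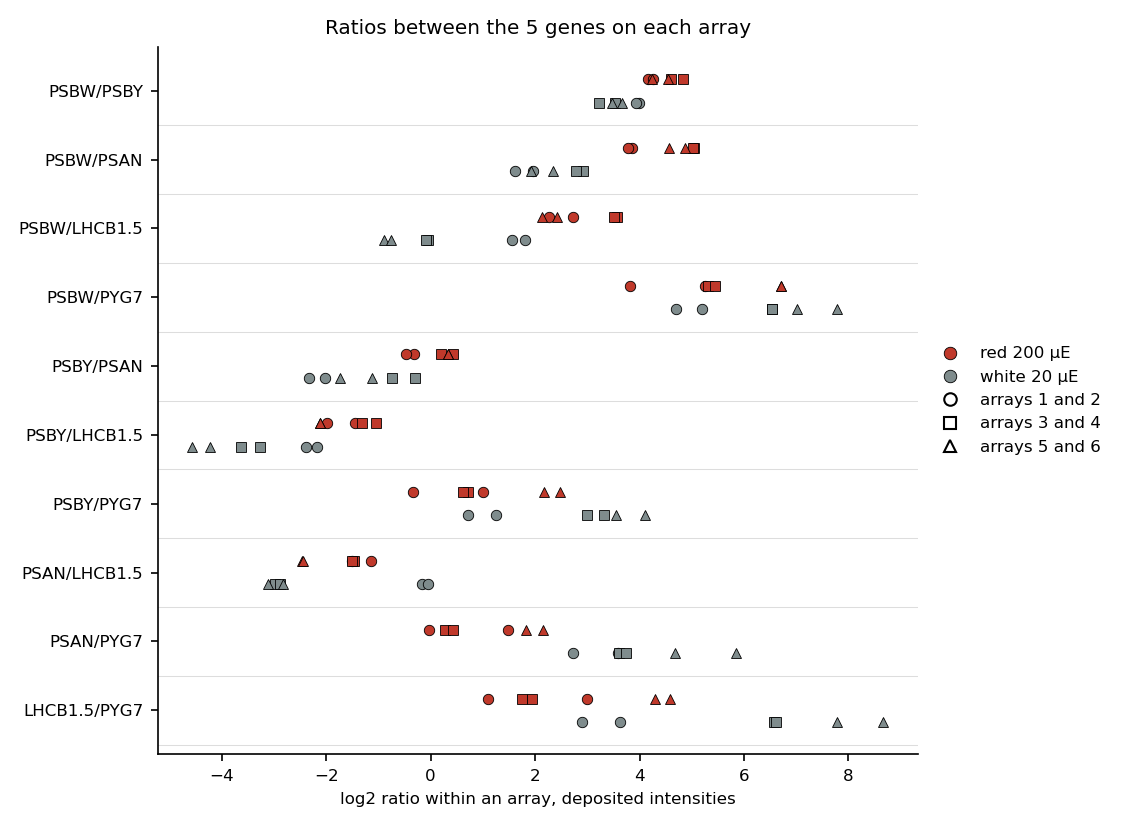
Log2 ratio between each 2 genes on each array, from deposited intensities, with red light above white light and symbols for the near-duplicates. Red and white arrays separate for PSBW/PSBY, PSBW/PSAN, PSBW/LHCB1.5, PSBY/LHCB1.5 and PSAN/PYG7. White arrays of PSAN/LHCB1.5 split into arrays 1 and 2 and the others.

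Photosystem II was set against photosystem I and the antenna as the mean log2 intensity of PSBW and PSBY minus that of PSAN and LHCB1.5 on the same array. This value was 1.2, 0.90, 2.0, 1.86, 1.38 and 1.23 on red arrays 1 to 6, against -0.10, -0.38, -0.17, -0.41, -1.31 and -0.94 on white arrays 1 to 6. All red arrays lay above all white arrays. Among deposited ratios of any 2 features above 0 on all arrays, 11.2% separated the arrays in either direction. No such share was computed for values built like this one. It also contains PSBW and PSAN, whose ratio already separated the arrays, so its separation is not independent of that ratio. The mean was 1.43 ± 0.45 in red and -0.55 ± 0.50 in white light (mean ± SD, n = 3 each), a difference of 1.98 with pair differences of 1.29, 2.22 and 2.43. It was 1.93 after quantile normalization and 1.70 to 2.17 without 1 pair. No p is given, because this is a score over genes chosen with results known, and whether it lies above or below 0 on an array depends on the probes. The score leaves out PYG7 from photosystem I and PSB27, described below, from photosystem II. After normalization their log2 differences were 2.19 and -0.36, opposite in sign to the genes on their side of the score. AT1G54500 (RBD1), an assembly gene described below, was also left out and was not assigned to a side. Its log2 difference of -0.81 was opposite in sign to those of PSBW and PSBY and had the sign of PSAN and LHCB1.5. LHCB1.5 was counted with photosystem I, although its complex feeds mainly photosystem II.

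The rank of a feature among all 3439 on its array is not altered by multiplying the array by a constant. PSBW ranked 15, 14, 3, 3, 3 and 5 from the brightest on red arrays 1 to 6, against 24, 22, 20, 22, 27 and 25 on white arrays 1 to 6. It was among the 15 brightest features in all red arrays and in none of the white arrays, and 10.3% of features had higher ranks in all red arrays than in all white arrays. PSBY ranked 121 to 269 in red and 232 to 554 in white light. PSAN ranked 169 to 234 in red and 77 to 168 in white light, a separation by 1 rank, and 5.06% of features separated with white higher. LHCB1.5 ranked 35 to 74 in red and 17 to 79 in white light, where arrays 3 to 6 held ranks 17 to 20 and arrays 1 and 2 held ranks 79 and 74. PYG7 ranked 180 to 889 in red and 1096 to 2648 in white light, so it stood among the brighter features in red and mostly in the dimmer part in white light.

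As percentile ranks, where 100 is the brightest, PSBW averaged 99.8 ± 0.185 in red light and 99.3 ± 0.0732 in white light, and PSBY 94.5 ± 1.93 in red light and 89.2 ± 3.8 in white light (mean ± SD, n = 3 each). PSAN averaged 94.3 ± 0.737 in red light and 96.6 ± 1.31 in white light (mean ± SD, n = 3 each). Among all features, the 3 pair means of the percentile rank did not overlap for 13.8% with red higher, as for PSBW and PSBY, and for 8.96% with white higher, as for PSAN. The exact two-sided permutation p was 0.1 for each of these genes, the smallest possible, and 0.125 adjusted over the 5 genes or 0.133 over the 4 without PYG7. It does not allow for the choice of the genes with earlier results known. For LHCB1.5, with 98.5 ± 0.452 in red light and 98.9 ± 0.974 in white light (mean ± SD, n = 3 each), the exact permutation p was 0.6. PYG7 averaged 84.6 ± 7.89 in red light and 37.7 ± 17.3 in white light (mean ± SD, n = 3 each).

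**Figure D4:**
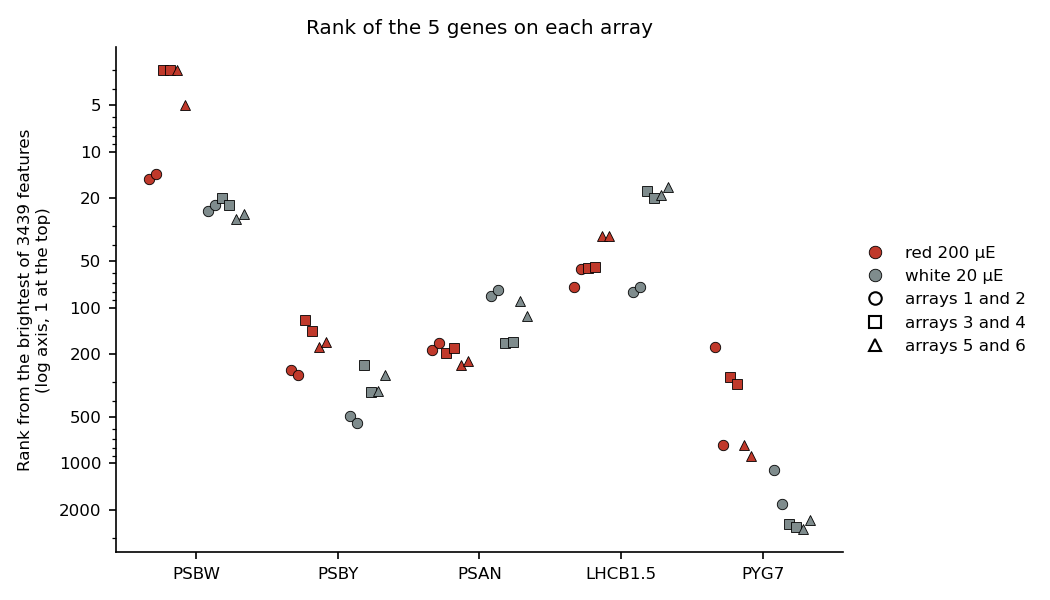
Rank of each gene from the brightest of 3439 features on each array (log axis, rank 1 at the top), with red light left of white light for each gene. PSBW holds ranks 3 to 15 on red arrays and 20 to 27 on white arrays, and PYG7 has the widest spread.

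Few other genes of the light reactions could be read, since most are not on a feature listed with 1 gene. The lists held 3 measured of 14 nuclear photosystem II genes, 1 of 12 photosystem I genes, 1 of 21 antenna genes, 2 of 24 photosystem assembly genes, 0 of 16 electron transport and ATP synthase genes and 2 of 13 Calvin cycle genes. Besides the 5 genes above these were PSB27, AT1G54500, PRK and SBPASE. SBPASE, at 0 on all arrays, could not pass any test. PSB27, AT1G54500 and PRK did not pass an adjusted p of 0.05 in limma, and AT1G54500 alone lay below 0.05 before adjustment. PSB27, a lumenal protein that acts in photosystem II assembly and repair, had deposited intensities of 0.816, 0.912, 0.406, 0.463, 3.58 and 3.52 on red arrays 1 to 6, against 0.644, 0.703, 0.495, 0.586, 1.65 and 1.66 on white arrays 1 to 6. Its highest values lay on arrays 5 and 6 of both lights, and the lights overlapped, with a log2 difference of -0.36 ± 0.83 (SE, adjusted p = 0.929 in limma). The third photosystem II gene thus did not share the separation seen for PSBW, and its interval of -2.52 to 1.80 includes the differences of PSBW and PSBY.

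AT1G54500 (RBD1), from the list of assembly genes, had deposited intensities of 0.46 to 0.61 in red light and 0.549 to 0.729 in white light. After normalization it averaged 0.443 ± 0.0865 in red light and 0.823 ± 0.173 in white light (mean ± SD, n = 3 each). The arrays did not overlap there, as for 5.06% of all rows with white higher. The log2 difference of AT1G54500 was -0.81 ± 0.22 (SE, adjusted p = 0.226 in limma), and the lights overlapped on the deposited scale. PRK, the phosphoribulokinase of the Calvin cycle, had deposited intensities of 0.682 to 1.2 on red arrays and 0.497 to 0.625 on white arrays. These did not overlap, as for 9.6% of all features with red higher. After normalization PRK had a log2 difference of -0.04, and the lights overlapped. SBPASE was listed at 0 on all arrays.

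The profiles most like each gene were sought among the other 508 features with 1 matched gene and values above 0 on all arrays. Likeness was the root mean square difference of log2 values over the 6 pair means after each gene was centred on its own mean, so that 0 means the same profile. Nearest to PSBW was HEMA3, a glutamyl-tRNA reductase gene of tetrapyrrole synthesis, at 0.37, followed by AT1G78620 at 0.38 and AT3G16310 at 0.39. PSBW itself varied by 0.91 on this measure. Both lights entered the measure, so how a neighbour differed between them follows largely from the way it was picked. HEMA3 averaged 1.13 in red light and 0.415 in white light after normalization. Nearest to PSBY was AT1G76450 at 0.14, which averaged 5.71 in red and 3.79 in white light. Nearest to PSAN was AT3G03590 at 0.12, with AT2G32640 and CCS, the copper chaperone of superoxide dismutase, at 0.19 and 0.20. Nearest to LHCB1.5 were AT5G19210, AT5G50350 and AT3G26630, at 0.23, 0.23 and 0.26. AT3G26630 averaged 7.32 in red light and 13.1 in white light. Nearest to PYG7 was AT4G04370 at 0.40, which averaged 0.931 in red and 0.192 in white light. Among the 5 genes, PSBW and PSBY were the closest 2 at 0.53, and LHCB1.5 and PYG7 the farthest apart at 1.94. PSBY itself varied by 0.48, less than its distance to PSBW, so their closeness is not read as a shared profile. PSAN varied by 0.45, LHCB1.5 by 0.84 and PYG7 by 1.22.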

How the data were processed

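The deposited table holds linear intensity values for 3439 features on 12 single-channel arrays. The sources used here do not say how the authors corrected background or scaled the values, and signal over background is not known. Features were named through GEO's platform annotation, and Entrez identifiers were matched to the RefSeq table of TAIR10.1 for 690 of the 692 features with 1 gene (870 had several and 1877 were not listed). Intensities were quantile-normalized, taken to log2 after adding 0.054 (percentile 5 of the deposited values above 0), and averaged per gene (3438 rows) and over near-duplicate arrays. The test was limma 3.58.1 (R 4.3.3), with Benjamini-Hochberg adjustment over all rows. The fit was tested on simulated data. Ratios and ranks used deposited intensities, with exact permutation tests (scipy 1.17.1).

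The genes and lists were chosen with earlier results of these data known. Named genes are the 5 genes, the measured list genes and the 3 nearest profiles of each. Deviations from the group means correlated at 0.125, 0.466 and 0.376 between same-numbered pair means of the lights, above the limit of 0.1, so a fit with these numbers as a replicate block was also made. The array numbers come from the sample titles, but the labels do not state a pairing between the lights. The grouping into near-duplicates and the use of this block rest on the values.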

Additional observations from a re-analysis of the deposited data

How the results depend on the processing

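The count of 4 features past the adjusted p of 0.05 in limma was 27 on the deposited scale, 1 after median scaling, 7 after scaling to the 75th percentile, 2 with the pseudocount multiplied by 4 and 1 without the dimmest 25% of features. It was 104 with array weights, 105 where near-duplicates formed a random block, 564 with 12 separate arrays and 826 with these and the replicate block, fits of 12 arrays having p values that are too small. With the replicate block on pair means it was 0 (645 at an unadjusted p under 0.05), and without arrays 5 and 6 of both lights 0 (627 unadjusted). Leaving out 1 array or 1 pair gave 0 to 5, with 0 without white array 1, without any of the 3 red pairs and without white arrays 1 and 2 or 3 and 4, and 2 without white array 5 or white arrays 5 and 6.

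The log2 differences of the 5 genes kept their sign in all 30 alternatives each. PSBW (1.58), PSBY (0.74) and PSAN (-0.70) passed the threshold with 12 separate arrays, with and without the replicate block, and PSBW also with the random block. PSBY was 0.51 and PSAN -0.32 with array weights, and LHCB1.5 was -1.38 there. Without 1 array or pair the differences ranged from 1.32 to 2.01 for PSBW, 0.54 to 0.94 for PSBY, -0.96 to -0.48 for PSAN, -1.49 to -0.44 for LHCB1.5 and 1.94 to 2.60 for PYG7, which was 1.65 with the pseudocount multiplied by 4. The cause of these shifts was not tested. Of the 10 ratios, 8 kept their sign throughout. PSBW to PYG7 was 0.21 with the pseudocount multiplied by 4, against -0.75, because white PYG7 values lie near that pseudocount. PSAN to LHCB1.5, at 0.25, was -0.22 and -0.23 without white arrays 3 and 4 or 5 and 6, and ranged from -0.23 to 1.19 when 1 pair was left out. The photosystem II contrast and the ranks kept their sign in all alternatives. The ratio alternatives with the pseudocount added and without arrays 5 and 6 were chosen after the data were examined. The number of arrays limits the precision.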
